A study of Homo sapiens with 6 samples.

Results

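The genes described here are the D-type cyclins (CCND1, CCND2, CCND3), their partner kinases (CDK4, CDK6), the retinoblastoma family (RB1, RBL1, RBL2) and the CDK inhibitor genes CDKN1B and CDKN2C. They were picked by symbol, 10 of the 58735 rows of the count table, and each was among the 15244 genes with enough counts to be tested. The comparison was between ACHN cells transfected with an siRNA against OTUD1 (named si01, 3 libraries) and ACHN cells transfected with a control siRNA (named NC, 3 libraries). ACHN is an established human renal cancer cell line, and OTUD1 encodes a deubiquitinase, which takes ubiquitin off its substrates. The labels name 1 siRNA against OTUD1, give no dose or time after transfection, and do not say from how many cultures the 3 libraries of each group were made, so errors and p-values reflect library-to-library spread that may be technical.

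The 10 genes were chosen with their fold changes in this same comparison known. Their levels, fold changes and calls are therefore a description, and no p-value is given for them. Tests are given only for other genes: those of the pathway lists, the cell type markers and genes that overlap the 10. The lists too were written with earlier results of these libraries known, and their named genes were taken mainly by smallest adjusted p. Their p-values are therefore also a description.

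D-type cyclins are the growth-factor-responsive activators of CDK4 and CDK6. The active kinases phosphorylate RB and its relatives p107 (RBL1) and p130 (RBL2), which otherwise hold E2F transcription factors in check, and so open the way from G1 into S phase. INK4 proteins such as p18 (CDKN2C) bind CDK4 and CDK6 directly, whereas p27 (CDKN1B) inhibits CDK2 complexes and is also held by cyclin D complexes. CCND1 is one of the most frequently overexpressed cell-cycle genes in human tumours. Phosphorylation, protein turnover and complex formation, which set the activity of this pathway, were not measured here.

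Levels are counts relative to library size (CPM), scaled by the trimmed mean of M values (TMM). Fold changes are log2 ratios, OTUD1 siRNA to control, each with a standard error (SE). Total counts were 16753495 to 18993534 in the control libraries and 17243433 to 21013530 in the OTUD1 siRNA libraries. OTUD1 itself had 61 to 67 counts in the control libraries and 17 to 28 in the OTUD1 siRNA libraries (3.77 ± 0.0684 and 1.17 ± 0.288 CPM, SD, n = 3), which is in the direction of the labels. In bulk RNA, fewer cells that express a gene and less RNA of it per cell cannot be told apart. The renal epithelial label was checked with 8 markers, all of which had counts. Of these, 6 were called lower and 1 higher, where 31.1% of all genes tested were called lower and 29.3% higher. The higher one was EPCAM, with a log2 fold change of 0.14. Its call was lost with DESeq2, with no filter, without control replicate 1 or 3 and without OTUD1 siRNA replicate 2 or 3. Its log2 fold change was then 0.11 to 0.15. The summed level of the 8 was 6497 to 6702 CPM in the control libraries and 3179.7 to 3293 CPM in the OTUD1 siRNA libraries, most of it from the keratins KRT8 (4112 and 1957 CPM) and KRT18 (1604 and 726 CPM). PAX8, a renal transcription factor, was 1.57-fold lower. Summed over 6 genes, leukocyte markers stood at 1.54 to 1.75 and 1.24 to 1.94 CPM, with PTPRC and CD3E at 0 counts, and 6 fibroblast and endothelial markers, none at 0 counts, at 8.04 to 10.2 and 12.3 to 15.2 CPM. Of each of these lists 2 genes had enough counts to be tested and 1 was called, both higher: CD8A, a T cell coreceptor subunit, with 9 counts in all in the control group and 39 in the OTUD1 siRNA group (log2 fold change 1.84, edgeR adjusted p = 0.00485), and PDGFRB, a growth factor receptor of mesenchymal cells, 1.74-fold from 4.56 ± 0.887 to 7.96 ± 0.956 CPM (SD, n = 3, edgeR adjusted p = 3.75e-05). The part of these marker shifts in the values below was not tested.

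The first sequence shown is the 1 window, of those searched around RefSeq start sites of these genes, in which an E2F word was found. Windows (GRCh38.p14, 250 bases before to 50 after the start) were matched for 8 of the 10 genes, some with several starts, and CCND1 and CCND2 were not among them. The windows do not always cover the first base of the GENCODE gene: that of RB1, chr13:48476200-48476499, lies within the gene, which begins at 48303726, so the promoter at the start of RB1 was not searched. E2F binding was represented by the words TTTCCCGC, TTTCGCGC, TTTGCCGC and TTTGGCGC, read on both strands. RBL1, the gene for p107, held 2 of them, 26 and 16 bases before its start site, in the window chr20:37095948-37096247 (minus strand), where capitals mark the words.
RBL1 promoter: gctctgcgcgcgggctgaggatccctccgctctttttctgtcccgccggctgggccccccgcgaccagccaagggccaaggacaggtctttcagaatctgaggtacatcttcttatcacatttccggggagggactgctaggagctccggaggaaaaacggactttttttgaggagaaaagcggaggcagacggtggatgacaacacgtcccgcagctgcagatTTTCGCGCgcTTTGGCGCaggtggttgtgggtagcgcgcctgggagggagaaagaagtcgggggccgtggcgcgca
Of all 35116 RefSeq windows of this length, 3.31% held at least 1 of these words. Counted by gene, a word was found in 1 of these 8 and in 6.56% of tested genes with a window. The cell-cycle homology word TTTGAA, present in 15.2% of windows on either strand, was found among the 8 genes in 1 window of RBL2. A match is a run of letters and not a measured binding site.

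Of the 10 genes, 7 passed the edgeR threshold as lower (CCND1, CCND2, CCND3, CDK4, RB1, RBL1 and CDKN1B) and 1 as higher (CDK6), while RBL2 and CDKN2C did not pass. Among all genes tested, 31.1% were called lower and 29.3% higher, 60.4% in all. Since the genes were chosen on this comparison, nothing is read from their count against this background. With library totals in place of TMM, 3456 genes were called lower and 6189 higher, against 4746 and 4460 with TMM, and the median log2 fold change of all genes was 0.134 in place of 0.01. The 3 OTUD1 siRNA libraries lay below all 3 control libraries for 7 of the 10 genes, with CDKN2C in place of RB1, against 33.0% of all genes, and above them for CDK6, against 31.5%. Groups thus did not overlap for 8 of the 10, against 64.5% of all genes. The median log2 fold change of the 10 genes was -0.40.

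**Figure D1:**
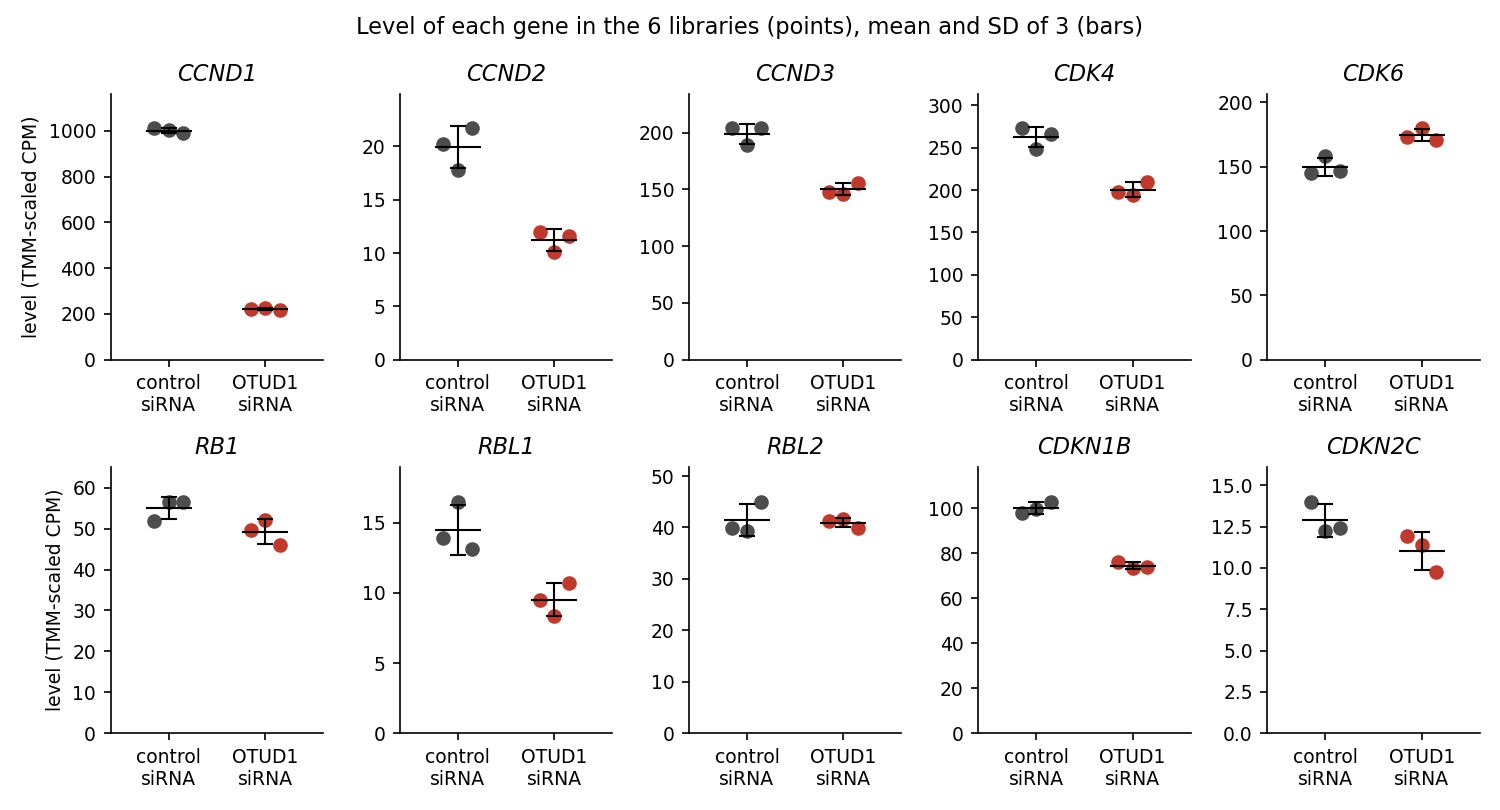
Level of each of the 10 genes in TMM-scaled CPM (vertical axes start at 0 and differ between panels) in the 3 control siRNA and 3 OTUD1 siRNA libraries; points are libraries and bars the mean and SD of 3. CCND1 stood at 989 to 1012 CPM in the control libraries and at 216 to 225 CPM in the OTUD1 siRNA libraries, and the groups overlapped for RB1 and RBL2.

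Cyclin D1 mRNA had by far the largest difference of the 10. CCND1 (ENSG00000110092.3; hg38 chromosome 11, 69641087 to 69654474, plus strand) was at 1012, 1003 and 989 CPM in control replicates 1 to 3 and at 220.3, 225 and 216 CPM in OTUD1 siRNA replicates 1 to 3. The libraries of a group lay within a narrow band and the bands were far apart. The log2 fold change was -2.18 (SE 0.03), a level 4.54-fold lower. In the ordered list of all genes tested, 17 had a log2 fold change as low or lower, CCND1 included. Only 99 genes, CCND1 included, had a mean control level as high as that of CCND1.

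Among the 257 genes whose mean control level lay within 2-fold of that of CCND1, itself included, 2 fell at least as much, CCND1 and CORO1C. CORO1C, which encodes an actin-binding coronin, went from 632 ± 7.46 to 129 ± 2.88 CPM (SD, n = 3), a log2 fold change of -2.29 that lies 0.1 from that of CCND1. The next nearest were PLAU, the urokinase plasminogen activator, at -1.70, and SPP1, the secreted phosphoprotein osteopontin, at -1.68. Likeness was the distance between log2 fold changes over the 6 libraries, among these 257 genes only: over all genes tested, without the limit on level, CORO1C was the 7th nearest to CCND1, PLAU the 47th and SPP1 the 50th.

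CCND2, which encodes cyclin D2, was a minor transcript here. It (ENSG00000118971.7; chromosome 12, 4273772 to 4305350, plus strand) was at 20.2, 17.8 and 21.7 CPM in the control libraries and 12.0, 10.1 and 11.6 CPM after OTUD1 siRNA, from 203 to 372 counts per library. All 3 OTUD1 siRNA libraries were below all 3 control libraries, with a log2 fold change of -0.82 (SE 0.098). CCND3, which encodes cyclin D3 (ENSG00000112576.12; chromosome 6, 41934933 to 42050357, minus strand), was at 204, 189 and 204 CPM in the control libraries and 148, 146 and 156 CPM after OTUD1 siRNA. Its groups did not overlap either, and its log2 fold change was -0.41 (SE 0.039).

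The makeup of the D-type cyclin mRNA pool was compared per length, as CPM per kilobase. With the union of annotated exons as gene length, the summed level of the 3 genes was 247, 243 and 243 CPM per kilobase in the control libraries and 72.8, 73.2 and 73.2 in the OTUD1 siRNA libraries. The sum was 3.34-fold lower after OTUD1 siRNA. CCND1 made up 84.8% ± 0.669 of this sum in the control group and 62.4% ± 1.31 in the OTUD1 siRNA group (SD, n = 3). CCND3 made up 14.0% ± 0.561 and 35.4% ± 1.2, and CCND2 1.14% ± 0.111 and 2.15% ± 0.201.

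Which cyclin led after OTUD1 siRNA depended on the gene length used. CCND3 has 5802 bases of annotated exon but a longest coding transcript of 2394 bases, and with the latter its share was 26.1% in the control group and 54.2% in the OTUD1 siRNA group. The share of CCND1 was then 73.0% and 44.3%. CCND1 had the lowest log2 fold change of the 3 cyclins and CCND3 the highest. That CCND1 lost share and CCND3 gained it therefore holds for any gene length and is no separate result. CCND1 exceeded CCND3 6.05-fold per length in the control group and 1.77-fold in the OTUD1 siRNA group with exon unions, and by ratios of 2.8 and 0.817 with coding transcripts.

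**Figure D2:**
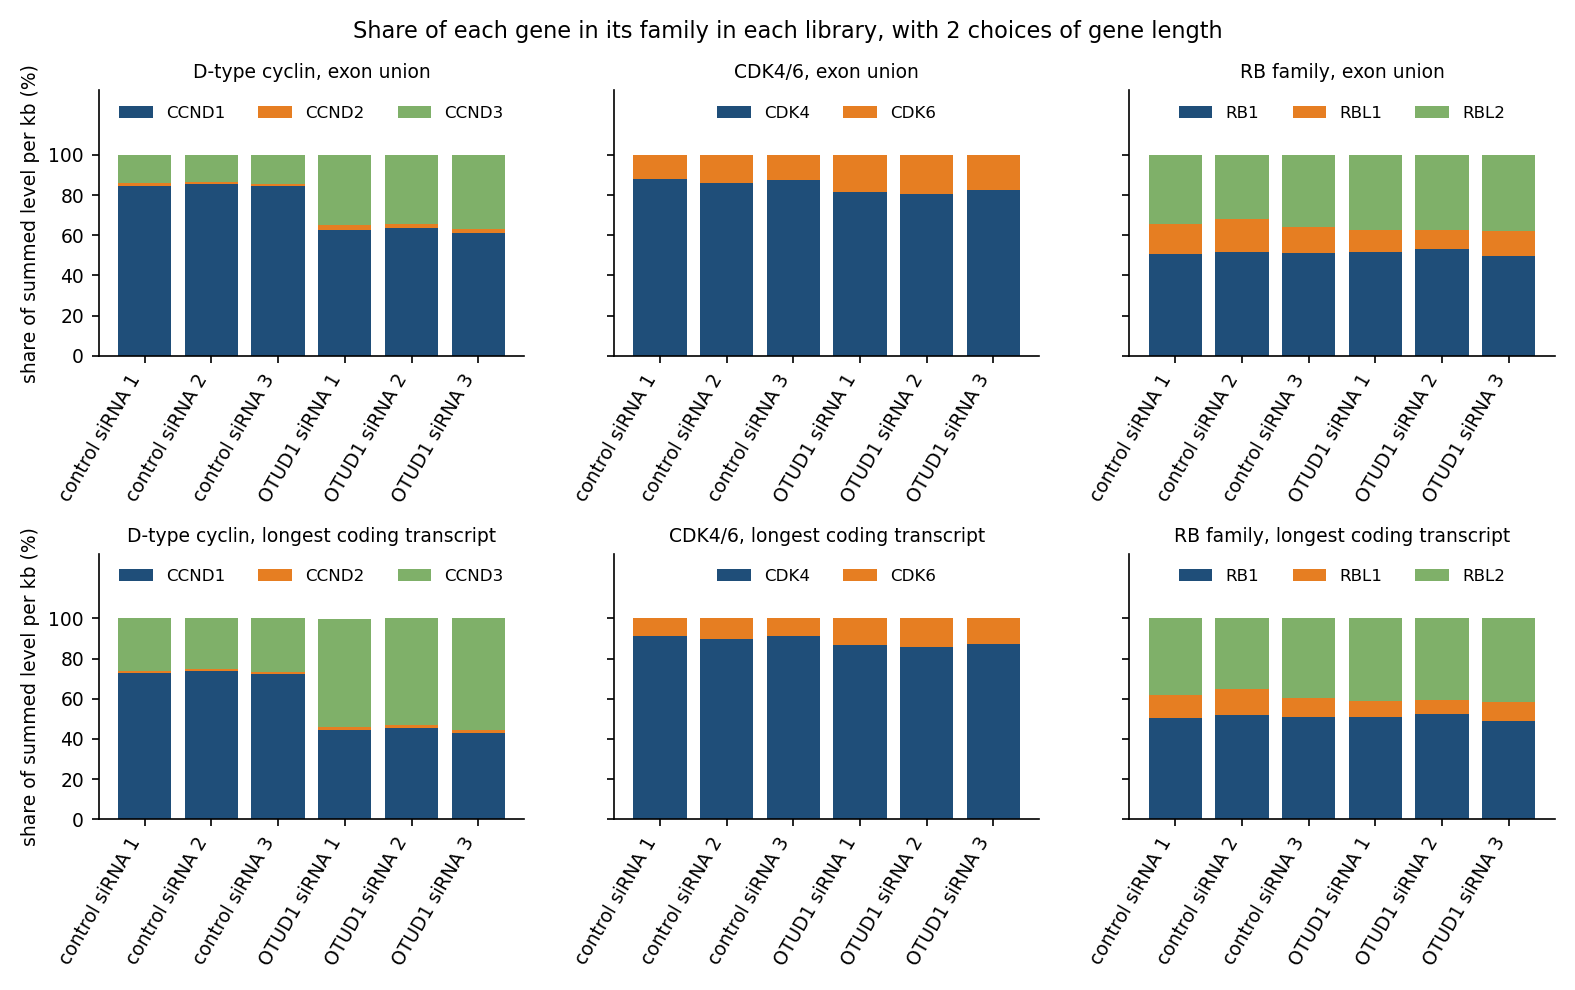
Share (%) of each gene in the summed level per kilobase of its family, for D-type cyclins (left), CDK4 and CDK6 (middle) and the RB family (right), in each of the 6 libraries, with gene length from the exon union (top) or the longest coding transcript (bottom). CCND1 made up 84.3% to 85.6% of D-type cyclin mRNA in the control libraries and 61.1% to 63.6% in the OTUD1 siRNA libraries with exon unions.

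The kinase genes moved in opposite directions. CDK4 (ENSG00000135446.16; chromosome 12, 57747727 to 57756013, minus strand) was at 273, 249 and 266 CPM in the control libraries and 198, 194 and 210.1 CPM in the OTUD1 siRNA libraries. Every OTUD1 siRNA library was below every control library, with a log2 fold change of -0.39 (SE 0.038). CDK6 (ENSG00000105810.9; chromosome 7, 92604921 to 92836594, minus strand) was at 145, 158 and 147 CPM in the control libraries and 173, 179.9 and 171 CPM in the OTUD1 siRNA libraries. It was the 1 gene of the 10 whose OTUD1 siRNA libraries all lay above the control libraries, with a log2 fold change of 0.22 (SE 0.039).

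The size of both kinase differences depended on the scaling. After quantile normalization the log2 fold changes were -0.23 for CDK4 and 0.36 for CDK6, and with library totals -0.26 and 0.35. Per kilobase of exon, CDK6 was 0.148 ± 0.0142 of CDK4 in the control group and 0.226 ± 0.0148 in the OTUD1 siRNA group (SD, n = 3). This ratio within libraries does not depend on scaling by a single factor per library, as with TMM or library totals. Quantile normalization can change it. The ratio was 1.52-fold higher after OTUD1 siRNA. Gene length cancels in that change, which is thus the same with either length. CDK4 remained the larger of the pair, at 87.1% of their sum in the control group and 81.6% in the OTUD1 siRNA group. The summed level of the D-type cyclins was 2.57 ± 0.0762 times that of CDK4 and CDK6 in the control group and 0.942 ± 0.0281 times in the OTUD1 siRNA group. With coding transcripts the ratios were 2.29 and 1.04. With exon unions the cyclin sum was 3.34-fold lower and the kinase sum 1.23-fold lower. The lower ratio follows from these differences and is no separate result.

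Within the RB family, the 3 genes differed. RB1 (ENSG00000139687.15; chromosome 13, 48303726 to 48599436, plus strand) was at 51.9, 56.6 and 56.6 CPM in the control libraries and 49.8, 52.1 and 46.0 CPM in the OTUD1 siRNA libraries. The groups overlapped, since OTUD1 siRNA replicate 2 lay above control replicate 1. Its log2 fold change was -0.16 (SE 0.057), and its call was lost without control replicate 2 (-0.14), control replicate 3 (-0.14) or OTUD1 siRNA replicate 3 (-0.11). It was also lost when scaled by library totals (-0.03) or by quantiles (-0.08), and when genes under a mean of 5 CPM were left out (-0.11).

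RBL1 (ENSG00000080839.11; chromosome 20, 36996349 to 37095995, minus strand), whose promoter with the pair of E2F words is shown above, was at 13.9, 16.5 and 13.1 CPM in the control libraries and 9.48, 8.34 and 10.7 CPM in the OTUD1 siRNA libraries. The groups did not overlap, and the log2 fold change was -0.62 (SE 0.11), from 168 to 300 counts per library. RBL2 (ENSG00000103479.15; chromosome 16, 53433977 to 53491649, plus strand) was at 39.9, 39.3 and 45.0 CPM in the control libraries and 41.2, 41.6 and 39.9 CPM in the OTUD1 siRNA libraries. These values overlapped throughout, with a log2 fold change of -0.02 (SE 0.061) whose sign changed with the scaling. RBL1 made up 14.7% ± 1.76 of RB family mRNA per kilobase of exon in the control group and 10.8% ± 1.65 in the OTUD1 siRNA group (SD, n = 3), while RB1 held 51.3% ± 0.532 and 51.5% ± 1.84.

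CDKN1B, the gene for p27, was lower after OTUD1 siRNA. It (ENSG00000111276.10; chromosome 12, 12715058 to 12722371, plus strand) was at 97.9, 99.8 and 103 CPM in the control libraries and 76.2, 73.6 and 73.9 CPM in the OTUD1 siRNA libraries. The groups did not overlap, and the log2 fold change was -0.43 (SE 0.044). CDKN1B mRNA per unit of summed D-type cyclin mRNA went from 0.146 ± 0.00489 in the control group to 0.363 ± 0.00811 in the OTUD1 siRNA group (SD, n = 3, per kilobase of exon), and from 0.118 to 0.243 with coding transcripts. CDKN1B itself was 1.34-fold lower and the cyclin sum 3.34-fold lower with exon unions. The higher ratio follows from these differences and is no separate result.

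CDKN2C, the gene for the INK4 inhibitor p18 (ENSG00000123080.10; chromosome 1, 50960745 to 50974633, plus strand), was at 14.0, 12.2 and 12.4 CPM in the control libraries and 11.9, 11.4 and 9.72 CPM in the OTUD1 siRNA libraries. All OTUD1 siRNA values lay below all control values, the nearest being 11.9 and 12.2 CPM, and the gene did not pass the threshold (log2 fold change -0.22, SE 0.11). It passed after quantile normalization (-0.25) and without OTUD1 siRNA replicate 1 (-0.28).

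**Figure D3:**
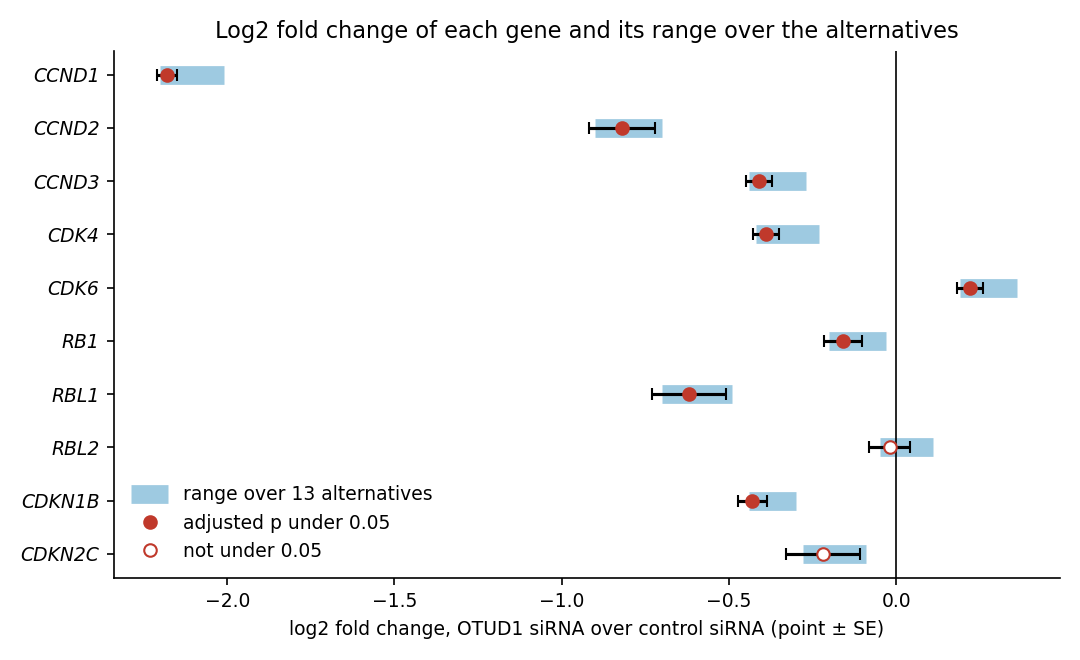
Log2 fold change (OTUD1 siRNA over control siRNA) of each of the 10 genes; points are the estimates with all 6 libraries, black bars ± SE, and blue bands the range over 13 alternatives in scaling, tool, filter, block and libraries left out. The band of CCND1 runs from -2.20 to -2.01, that of CDK6 from 0.19 to 0.36, and that of RBL2 spans 0.

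In order of level per kilobase of exon in the control group, CCND1 (207 ± 2.41 CPM per kilobase, SD, n = 3) was followed by CDK4 (82.9 ± 3.99), CDKN1B (35.6 ± 0.878), CCND3 (34.3 ± 1.51), CDK6 (12.2 ± 0.558) and RB1 (8.53 ± 0.416). RBL2 (5.66 ± 0.43), CDKN2C (3.88 ± 0.3), CCND2 (2.78 ± 0.273) and RBL1 (2.44 ± 0.298) were lowest. The neighbours CDKN1B and CCND3 overlapped between libraries, as did CCND2 and RBL1, while all other neighbours were separate. In the OTUD1 siRNA group CDK4 (63.3 ± 2.69) stood first and CCND1 (45.6 ± 0.972) second, and the rest kept their order except that RBL1 (1.6 ± 0.2) and CCND2 (1.57 ± 0.142) were level within their spread. With coding transcripts CCND3 (83.1 in the control group and 62.7 after OTUD1 siRNA) stood above CDKN1B in both groups and above CCND1 (51.2) after OTUD1 siRNA.

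Genes that overlap these 10 were examined because no source used here gives the strand setting of the counting, so reads of genes on opposite strands cannot be assigned with certainty. CDK4 shares 43.2% of its exon bases with TSPAN31, a tetraspanin gene on the other strand, and CCND1 shares 10.3% with LTO1. RBL2 shares 8.33% with AKTIP, also on the other strand. The levels per kilobase of CDK4, CCND1 and RBL2, and the shares and ratios that use them, carry the same uncertainty. CCND2 shares 13.8% with AC008012.1, annotated as protein-coding on the same strand, which had 0 counts in all 6 libraries, and reads in the shared bases could not be told apart by strand under any setting. RBL2 also shares 9.85% with AC007342.6 on the other strand, which had 2 counts in the control group and 0 in the OTUD1 siRNA group. TSPAN31 stood at 35.5 ± 2.56 CPM with control siRNA and 38.3 ± 1.22 CPM with OTUD1 siRNA, LTO1 at 20.3 ± 0.712 and 20.8 ± 1.17 CPM, and AKTIP at 19.6 ± 1.02 and 19.1 ± 0.257 CPM (SD, n = 3). None of these passed the edgeR test (adjusted p = 0.138, 0.697 and 0.717), and their log2 fold changes were 0.11, 0.04 and -0.04. The antisense gene CCND2-AS1 had 3 counts in all with control siRNA and 21 with OTUD1 siRNA.

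Short words in 3′ untranslated regions (3′ UTRs) were also listed. The words CAAACAA and AAACAAA had been picked earlier on these same libraries as frequent in the 3′ UTRs of genes that were lower. CAAACAA occurs in the 3′ UTR of OTUD1. It was in none of the 3′ UTRs of the 10 genes, against 14.0% of the 12433 tested genes with a 3′ UTR. The 3192-base 3′ UTR of CCND1 held neither word, nor did those of CCND3, CDKN1B and CDKN2C. AAACAAA was in the other 6, against 29.9% of tested genes. Those 6 were CCND2, CDK4, RB1 and RBL1, called lower, CDK6 (4 copies in 10219 bases), called higher, and RBL2 (2 copies in 1349 bases), not called. The sites in OTUD1, CCND2 and RBL1 and the first in CDK6 follow, with the word in capitals.
OTUD1: ttgctgggtCAAACAAtgtttccaa
CCND2: gtccttgaaAAACAAAgtttctatt
RBL1: taagccaaaAAACAAAgtctgtctg
CDK6: tatggtcgaAAACAAAtgttatgga
Over all tested genes the median log2 fold change was -0.24 with CAAACAA and 0 without it, and -0.18 with AAACAAA and 0.02 without it. The 3′ UTRs with a word were longer, with a median of 2974 bases against 933 for CAAACAA. The part of such sites in the values of these 10 genes was not tested, and no siRNA sequence was used here.

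The other genes of the pathway were taken from 9 lists, those that act after the cyclin D kinases first. In list counts, fell and rose mean called lower and called higher, as 31.1% and 29.3% of all genes tested were. Of 10 E2F and DP transcription factor genes, 8 fell and 0 rose, with a median log2 fold change of -0.55. The smallest adjusted p was that of TFDP1, a DNA-binding partner of the E2Fs, which went from 137 ± 3.13 to 87.1 ± 0.969 CPM (log2 fold change -0.66, edgeR adjusted p = 1.96e-14), and E2F7, a repressor of the family, was 1.56-fold lower. The activators E2F2 and E2F1 were 2.63-fold and 1.55-fold lower. Of 20 E2F target genes of the G1/S transition, 19 had enough counts, and all 19 fell, with a median of -0.68. CHEK1, named here after its values were seen, lost its call with library totals (log2 fold change -0.06) and after quantile normalization (-0.13), which left 18 called lower. UHRF1, which maintains DNA methylation at replication, fell 2.55-fold (edgeR adjusted p = 7.33e-20), thymidine kinase TK1 1.68-fold and the checkpoint mediator CLSPN 2.26-fold. RRM2 of nucleotide synthesis fell 2.72-fold. The promoter words described for RBL1 were found in 4 of 8 E2F and DP genes and in 10 of 18 E2F targets with a RefSeq promoter, against 6.56% of tested genes. A list of known E2F targets is likely to hold such words, so its count is no separate result. The part of these words in the falls was not tested.

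The genes of the kinase step after CDK4 and CDK6, which are CDK2, its cyclins CCNE1, CCNE2 and CCNA2 and its activating phosphatase CDC25A, all fell, 5 of 5, with a median of -0.38. CCNA2, cyclin A2, fell 1.65-fold from 99.1 ± 3.9 to 60.1 ± 2.46 CPM (edgeR adjusted p = 1.16e-13), CCNE2 2.35-fold, CDK2 1.30-fold and CCNE1 1.20-fold. CCNE1 and CCNE2 both encode E-type cyclins, the activators of CDK2. With library totals 3 of the 5 were called: the log2 fold change of CCNE1 was then -0.14 (edgeR adjusted p = 0.146) and that of CDC25A -0.06 (edgeR adjusted p = 0.421). CDC25A also lost its call after quantile normalization (-0.11).

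The inhibitor genes outside the 10 moved both ways. Of 5 tested, 2 fell and 1 rose, with a median of -0.30. CDKN1A, the gene for p21, went from 1128 ± 18.4 to 828 ± 4.14 CPM (log2 fold change -0.45, edgeR adjusted p = 7.52e-15), and CDKN1C, the gene for p57, was 2.05-fold lower from 4.1 ± 0.234 CPM. CDKN2B, the gene for the INK4 inhibitor p15, rose 1.22-fold from 11.1 ± 1.13 to 13.5 ± 0.353 CPM (edgeR adjusted p = 0.0164), and it lost its call without control replicate 2 (log2 fold change 0.23). CDKN2A, which lies outside the rule for named genes and was picked after its values were seen, had 22 to 40 counts per library, with a log2 fold change of 0.07 (SE 0.29).

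Genes that handle the cyclin, kinase and inhibitor proteins were mixed. Of 12 genes for turnover of D-type cyclins and p27, 7 fell and 3 rose, with a median of -0.19. With library totals in place of TMM, 5 of them were called lower and 5 higher. SKP2, which recognises p27 for ubiquitination, fell 2.15-fold from 25.6 ± 2.41 to 11.9 ± 0.651 CPM (edgeR adjusted p = 1.19e-11), and its cofactor CKS1B fell 1.40-fold. CKS2 fell 1.30-fold and GSK3B, a kinase that phosphorylates cyclin D1 ahead of its export and degradation, fell 1.32-fold. AMBRA1 and FBXO31, receptors of ubiquitin ligases that target D-type cyclins, rose 1.25-fold and 1.27-fold (edgeR adjusted p = 0.000118 and 0.000155).

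Of 6 genes for chaperones and the activating kinase of CDK4 and CDK6, 4 fell and 1 rose, with a median of -0.26. The chaperones HSP90AA1 and HSP90AB1 fell 1.46-fold and 1.25-fold and the activating kinase CDK7 1.26-fold. CDC37, the HSP90 cochaperone that delivers CDK4, rose 1.16-fold (edgeR adjusted p = 3.76e-06).

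RB-associated chromatin factors showed no common direction. Of 9 tested, 3 fell and 3 rose, with a median of -0.03. The histone deacetylase HDAC1 rose 1.61-fold from 108 ± 4.46 to 174 ± 4.69 CPM (edgeR adjusted p = 7.09e-15) and RBAK, a zinc finger protein that binds RB, rose 1.69-fold, while ARID4B and the histone methyltransferase SUV39H1 fell 1.38-fold and 1.50-fold. Of 8 genes of the MuvB core, the DREAM kinase and activating partners, 4 fell and 0 rose, with a median of -0.30. The MuvB core joins p107 and p130 in the DREAM repressor. LIN54, its DNA-binding subunit, fell 1.86-fold, FOXM1, which takes over the complex in G2, 1.30-fold, and LIN9 and RBBP4 1.26-fold and 1.20-fold (edgeR adjusted p = 6.36e-09, 3.11e-09, 0.00178 and 2.34e-06).

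Of 14 transcription factors known to act on CCND1 or CDKN1B that had enough counts, 9 fell and 3 rose, with a median of -0.33. FOSL1, an AP-1 subunit, fell 1.96-fold from 341 ± 3.37 to 174 ± 4.2 CPM (edgeR adjusted p = 2.76e-20), ETS1 1.73-fold and the NF-kB subunit RELA 1.65-fold. MYC fell 1.38-fold. STAT3 rose 1.34-fold and FOXO4, of a family that activates CDKN1B, rose 2.04-fold from 44 counts in all to 106. Calls of genes not named by the rule were lost under at least 1 alternative for CCNH of the activating kinase, E2F5, RBBP7, SKP1, FBXW8, CRYAB, CTNNB1 and FOXO3. The lists share the background of 31.1% of genes called lower and 29.3% called higher, and they were written with earlier results of these libraries known.

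**Figure D4:**
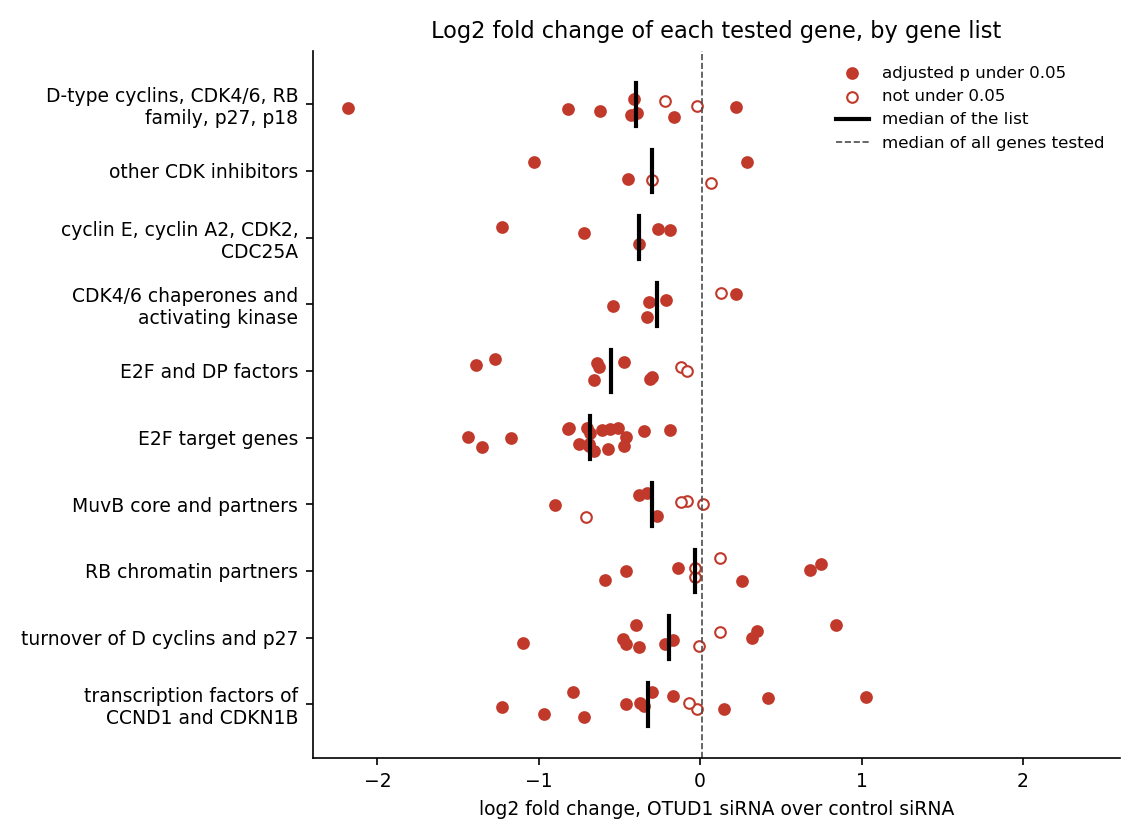
Log2 fold change (OTUD1 siRNA over control siRNA) of each tested gene, for the 10 genes described (top row) and 9 pathway lists; filled points passed an edgeR adjusted p of 0.05, open points did not, black bars are list medians and the dashed line is the median of all genes. All 19 E2F target genes lie below 0 (median -0.68), and the RB chromatin partners lie on both sides (median -0.03).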

How the data were processed

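RNA of 6 ACHN libraries was sequenced. Trizol RNA went into a library kit that keeps the strand, per the labels' protocols. The build is hg38, per the submitters' processing notes; no source used here gives the aligner, counter, strand setting or annotation. The deposited values are whole-number counts per gene symbol, although the table's name speaks of FPKM; their totals differ between libraries. Of 58735 rows, 30560 had no count.

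Counts were analysed with edgeR 4.0.16 (R 4.3.3). The low-count filter was filterByExpr (minimum count 10, minimum total 15, smallest group 3), scaling was TMM, and the two-sided quasi-likelihood test (glmQLFit, glmQLFTest) was adjusted by Benjamini-Hochberg over all 15244 genes tested, with a threshold of 0.05. The SE is the size of the log2 fold change divided by the square root of the F statistic of the quasi-likelihood test. The fit was checked on simulated counts in which few genes were changed, as many up as down. In the data 60.4% of genes were called, so this check does not bear on the scaling. Libraries of a group differed by more than sampling noise. A count of 3 corresponds to 0.137 to 0.188 CPM. Coordinates, exon lengths and 3′ UTRs (principal transcript, at least 50 bases) come from GENCODE 29 on the same build; 99.95% of symbols matched.

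The genes and lists were chosen with earlier results of these data known. Named were OTUD1, the 10 genes, of each list up to 4 called genes by adjusted p and up to 2 called against its direction, genes overlapping the 10, and the 3 nearest to CCND1 in log2 fold change among genes within 2-fold of its control level. Alternatives covered scaling, tool (DESeq2 1.42.0, limma 3.58.1), filter, the replicate number as a block, each library left out, and gene length.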

Additional observations from a re-analysis of the deposited data

How the results depend on the processing

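Under 13 alternatives, CCND1, CCND2, CCND3, CDK4, RBL1, CDKN1B and CDK6 kept their direction and their call. Of the 10 genes, 6 to 8 were called lower and 1 higher. RBL2 had log2 fold changes of 0.11 with library totals, 0.05 after quantile normalization, 0.03 with a minimum mean of 5 CPM, and from -0.05 to 0.05 with each library left out in turn (0.05 without control replicate 3 and 0.00 without OTUD1 siRNA replicate 3), none of them called. With library totals, the median log2 fold change of all genes was 0.134, and 3 of the cyclin E, cyclin A2, CDK2 and CDC25A genes were called lower. Called higher were then 2 CDK4/6 chaperone and activating kinase genes, 5 RB chromatin partners and 5 turnover genes. Of these 3 lists, in the same order, 3, 2 and 5 genes were called lower, against 4, 3 and 7 with TMM. With a minimum mean of 5 CPM, 1 of the other CDK inhibitors was called lower, since CDKN1C was then not tested. Leaving out 1 library at a time, 0 to 1 of them were called higher. The cause of the other changes was not tested. With the longest coding transcript as length, shares in the control and OTUD1 siRNA groups were 73.0% and 44.3% for CCND1, 0.964% and 1.50% for CCND2, 26.1% and 54.2% for CCND3, 90.7% and 86.5% for CDK4, 9.29% and 13.5% for CDK6, 11.4% and 8.27% for RBL1, and 37.5% and 41.1% for RBL2. With the replicate number as a block, 4791 genes were called lower and 4484 higher, and 7 and 1 of the 10; same-numbered libraries did not deviate together (correlations of -0.0229 to 0.0178), so the number is not taken as a pairing. Genes near 10 CPM, such as RBL1 and CDKN2C, rest on 168 to 300 counts per library, which limits what difference can be seen.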
